A study of Mus musculus with 2 samples.

Results

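The mouse glutathione transferase genes *Gsta4*, *Gstm1*, *Gstm2*, *Gstm5*, *Gstp1*, *Gsto1*, *Gstt1*, *Gstt3*, *Mgst1* and *Mgst3* were followed in tag libraries of 2 testis-derived cell lines. They were chosen by symbol, and the 10 genes are part of the 14450 genes that had at least 1 unambiguous sense tag in either library. In GC-2spd (ts) against GC-1spg, 3 of the 10 genes were higher (*Gsto1*, *Gstt1* and *Gstm5*), 2 were lower (*Mgst1* and *Gsta4*) and 5 did not pass the thresholds. A gene was called when its FDR over all 14450 genes was at most 0.001 and its absolute log2 ratio at least 1. Of all genes tested 11.7% were called higher and 7.84% lower, which is 19.5% in either direction, and the counts of the 10 genes were not tested against these shares. Of all called genes 59.8% were higher, and 47.2% with TMM scaling. The 10 genes together held 2913 tags in GC-1spg against 2596 tags in GC-2spd (ts).

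Glutathione transferases join the tripeptide glutathione to electrophilic compounds, which makes these compounds more soluble and marks them for export from the cell. The soluble enzymes are grouped into classes by sequence, among them alpha, mu, pi, omega and theta, while the microsomal enzymes are a separate family that sits in membranes. In the testis these enzymes are known for handling products of lipid peroxidation and foreign chemicals.

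GC-1spg is a line of type B spermatogonia taken from a mouse of 10 days and transformed with the plasmid pSV3-neo. The authors place its traits between those of type B spermatogonia and those of primary spermatocytes. GC-2spd (ts) is a line of spermatocytes taken from a mouse of 6 weeks and transformed with the SV40 large T antigen. Both were grown in DMEM to which FBS (10%) and sodium bicarbonate (1.5 g/L) had been added. 1 library was sequenced per line, so there was no replicate check, every test compared the 2 libraries and not the cell lines, and donor age, the transformation and the cell type of origin cannot be told apart.

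Each library was a digital gene expression (DGE) library, in which *Nla*III cuts cDNA at CATG and *Mme*I releases the CATG with the 17 bases after it. The level of a gene is given as its tag count and as TPM, its count divided by all clean tags of the library and multiplied by 1000000. A tag is taken at a CATG site and not per base, so TPM does not grow with transcript length and was not divided by it. The libraries held 5072149 clean tags in GC-1spg against 4726808 in GC-2spd (ts), so 1 copy equals 0.197 TPM and 0.212 TPM. Separate molecules and PCR copies of a tag could not be distinguished, and the intervals take in counting error alone. A bulk library also cannot tell fewer cells with a transcript from less transcript per cell. Of 10 germ cell markers, 0 had an unambiguous sense tag in either library. Antisense tags and tags shared between genes were not counted for the markers. Of 6 fibroblast markers 5 were listed, with a sum of 11915 tags in GC-1spg against 3528 in GC-2spd (ts), of 8 Sertoli cell markers 5 (1585 and 446 tags), of 4 peritubular myoid markers all 4 (66 and 576 tags), of 6 Leydig cell markers 2 (4 and 5 tags), of 3 endothelial markers 1 (2 and 4 tags) and of 4 macrophage markers 0. The lists did not move as one. Of the fibroblast markers *Col1a1* (10465 and 2425 tags) made up most of the sum and *Dcn* had 710 and 2, while *Col1a2* had 605 and 907 and *Col3a1* 50 and 120. Of the Sertoli cell markers *Wt1* had 620 and 0 tags and *Gata4* 29 and 138, and of the myoid markers *Acta2* had 50 and 555 and *Des* 11 and 4. The part of these differences in the results on glutathione transferases was not tested.

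The tags that carried the results are shown first, because each level is the copy number of 1 or a few such tags. CATG is in capitals, and positions are in GRCm38. The tag with most copies of each gene was as follows.
Mgst1: CATGaattaaaaacattacaa
Gsta4: CATGtatgcagatggcaccca
Gsto1: CATGtctgaaaactgtgattt
Gstt1: CATGacctcaactataatcac
Gstm5: CATGtgccgttttgaggcttt
Gstm1: CATGgccccttcttcattggc
Gstm2: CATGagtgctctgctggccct
Gstt3: CATGcaagagacggggattga
Mgst3: CATGtacagcacagatcctga
Gstp1: CATGcgaatgctgctggctga

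The *Mgst1* tag lies in the 3′ UTR of exon 4 at chr6:138156729-138156749 on the plus strand, 6 bases from the 3′ end of the transcript. The *Gsto1* tag lies in the 3′ UTR of exon 6 at chr19:47864719-47864739 on the plus strand, 51 bases from the end. The tags of *Gstt1* (chr10:75783864-75783884, exon 5), *Gstt3* (chr10:75774362-75774382, exon 5), *Gstm1* (chr3:108012463-108012483, exon 8) and *Gstm2* (chr3:107981998-107982018, exon 8) lie in the 3′ UTR on the minus strand. 4 tags lie in coding sequence. These are the *Gsta4* tag in exon 5 of 7 (chr9:78205918-78205938, plus strand), the *Gstp1* tag in exon 3 (chr19:4037363-4037383, minus strand), the *Mgst3* tag in exon 3 (chr1:167377306-167377326, minus strand) and the *Gstm5* tag, which spans the junction of exons 7 and 8 on the plus strand (chr3:107898261-107898455) and is therefore not contiguous in the genome. Except for *Mgst3* and *Gstp1*, the tag came from the CATG site nearest the 3′ end among sites of the gene's transcript.

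*Mgst1* encodes a membrane enzyme of the endoplasmic reticulum and the outer mitochondrial membrane that also reduces lipid hydroperoxides. It had 1682 tags in GC-1spg against 206 tags in GC-2spd (ts), or 332 TPM (95% exact Poisson interval 316 to 348) and 43.6 TPM (37.8 to 49.96). The level was 7.61-fold lower in GC-2spd (ts) (log2 ratio -2.93, 95% interval -3.14 to -2.72), with a Benjamini-Hochberg FDR of 2.23e-263 by the two-sided Audic-Claverie test. *Mgst1* was ranked 208 by TPM among the listed genes of GC-1spg and 3087 in GC-2spd (ts).

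*Mgst3*, the other microsomal member, encodes an enzyme with peroxidase activity that can also make leukotriene C4. It had 23 tags in GC-1spg against 38 in GC-2spd (ts), or 4.53 and 8.04 TPM, and was not called (log2 ratio 0.83, 0.042 to 1.64, FDR 0.0753, Audic-Claverie test). Of these, 21 and 38 copies came from the coding tag shown above, 853 bases from the 3′ end, and the site nearest the end gave 2 and 0 copies. The microsomal pair together went from 336 to 51.6 TPM, a sum made up almost entirely of *Mgst1*.

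*Gsta4*, an alpha class enzyme known for conjugating 4-hydroxynonenal, a product of lipid peroxidation, had 277 tags in GC-1spg against 15 in GC-2spd (ts). These are 54.6 TPM (48.4 to 61.4) and 3.17 TPM (1.78 to 5.23), and the level was 17.2-fold lower in GC-2spd (ts) (log2 ratio -4.11, -4.96 to -3.36, FDR 2.42e-58, Audic-Claverie test). This was the largest absolute log2 ratio of the 10 genes. The tag shown above gave 224 of the copies in GC-1spg against all 15 in GC-2spd (ts). A second tag, which covers the start codon in exon 2 (chr9:78198289-78198309, plus strand), gave 49 copies in GC-1spg against 0 in GC-2spd (ts). Its share of the *Gsta4* tags was 17.7% (95% Clopper-Pearson interval 13.4 to 22.7) in GC-1spg, and the 15 tags of GC-2spd (ts) allowed a share of up to 21.8%, so no difference in tag use was detectable at this depth.

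*Gsto1* encodes an omega class enzyme, which has a cysteine at its active site and reduces dehydroascorbate and methylated arsenic compounds. It had 626 tags in GC-1spg against 1871 in GC-2spd (ts), or 123 TPM (114 to 133) and 396 TPM (378 to 414). The level was 3.21-fold higher in GC-2spd (ts) (log2 ratio 1.68, 1.55 to 1.81, FDR 1.24e-160, Audic-Claverie test), where *Gsto1* was ranked 185 by TPM against 894 in GC-1spg. Its call was lost in edgeR's exact test with an assumed biological coefficient of variation (BCV) of 0.2 (FDR 0.00113). *Gsto2*, its neighbour on chromosome 19, had 7 tags in GC-1spg against 0 in GC-2spd (ts) and was not called.

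The size of the *Gsto1* difference depended on the second CATG site of its 3′ UTR, at chr19:47864499-47864519 on the plus strand, 271 bases from the transcript's end. The libraries held 4 tags for this site, and they are shown because they were listed in 1 library each. Positions are counted from 1 at the first base of CATG, the first letter of a substitution is the base of the reference, and capitals mark the substituted bases, or CATG in the tag without a substitution.
G13A and T21A: catgcttattttAtccagtaA
G13A: catgcttattttAtccagtat
T21A: catgcttattttgtccagtaA
reference: CATGcttattttgtccagtat

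The tag with G13A and T21A had 250 copies in GC-1spg against 0 in GC-2spd (ts), and the tag with G13A alone had 13 and 0. The tag with T21A alone had 0 copies in GC-1spg against 244 in GC-2spd (ts), and the reference tag had 0 and 31. All 263 copies of the site in GC-1spg therefore carried G13A, and all 275 copies in GC-2spd (ts) carried the reference base there. T21A was in most copies of both libraries, 95.1% (91.7 to 97.3) in GC-1spg and 88.7% (84.4 to 92.2) in GC-2spd (ts). Because at most 1 mismatch was allowed, the 250 copies were left out of the *Gsto1* level above. With them *Gsto1* had 876 and 1871 tags, 173 and 396 TPM, and a log2 ratio of 1.20 (1.08 to 1.31), still higher in GC-2spd (ts). Taken by site, the second site alone gave 263 and 275 copies (log2 ratio 0.17, -0.083 to 0.42), and all other sites 613 and 1596 (1.48, 1.35 to 1.62). The second site thus held 30.0% (27.0 to 33.2) of the *Gsto1* tags in GC-1spg and 14.7% (13.1 to 16.4) in GC-2spd (ts).

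**Figure D1:**
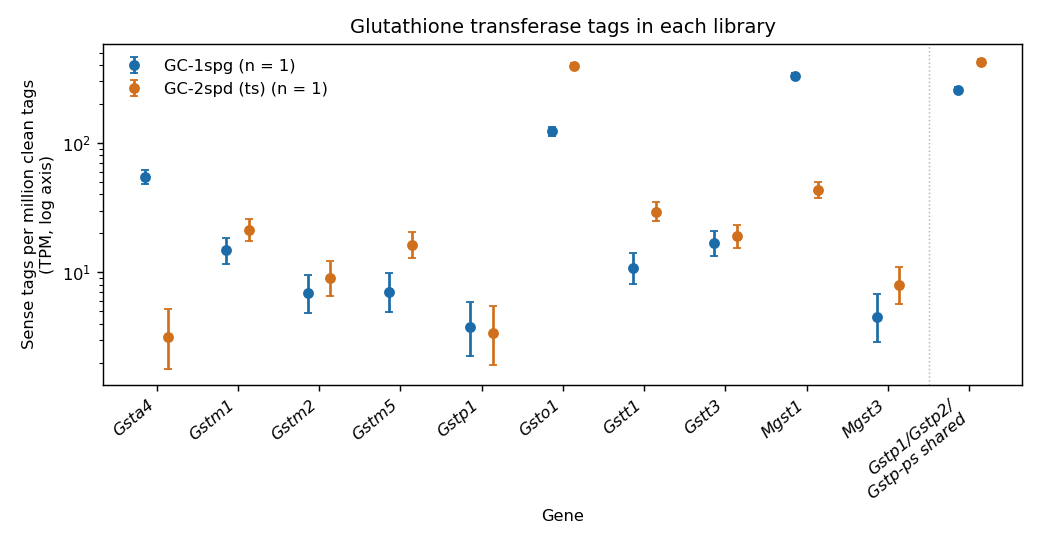
Level of the 10 glutathione transferase genes, and of the tags shared by *Gstp1*, *Gstp2* and *Gstp-ps* (right of the dotted line), in TPM on a log axis in 1 library of each line, with exact 95% Poisson intervals. *Mgst1* stood at 332 and 43.6 TPM and *Gsto1* at 123 and 396 TPM, so by tags of single genes the most abundant of the 10 differed between the libraries.

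The theta class enzymes act on small halogenated hydrocarbons among other substrates. *Gstt1* had 55 tags in GC-1spg against 139 in GC-2spd (ts), or 10.8 TPM (8.17 to 14.1) and 29.4 TPM (24.7 to 34.7). It was 2.71-fold higher in GC-2spd (ts) (log2 ratio 1.44, 0.98 to 1.92, FDR 4.06e-10, Audic-Claverie test), and all of its copies came from the 1 tag shown above. The call was lost with an assumed BCV of 0.2 (FDR 0.02, edgeR's exact test). Its neighbour *Gstt3* had 85 and 90 tags, or 16.8 and 19.0 TPM, and was not called (log2 ratio 0.18, -0.26 to 0.63, FDR 0.553). The intervals of the log2 ratios of these neighbours on chromosome 10 did not overlap. *Gstt2*, in the same cluster, had 18 and 8 tags, and *Gstt4* had 2 and 2.

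The mu class enzymes conjugate epoxides and other electrophiles, and their genes lie side by side on chromosome 3. *Gstm5* had 36 tags in GC-1spg against 77 in GC-2spd (ts), or 7.10 TPM (4.97 to 9.83) and 16.3 TPM (12.9 to 20.4). It was called higher, 2.30-fold (log2 ratio 1.20, 0.61 to 1.81, FDR 0.000108, Audic-Claverie test), but the call was lost with TMM scaling (log2 ratio 1.02, FDR 0.00125) and with RLE scaling (1.04, FDR 0.0011). *Gstm1* had 75 and 101 tags, or 14.8 and 21.4 TPM, and was not called (log2 ratio 0.53, 0.086 to 0.98, FDR 0.0403). *Gstm2* had 35 and 43 tags, or 6.90 and 9.10 TPM, and was not called either (log2 ratio 0.40, -0.28 to 1.09, FDR 0.372). The intervals of the 3 mu class genes overlapped, so no order among them could be drawn. Summed, they went from 28.8 to 46.8 TPM (log2 ratio 0.70, 0.39 to 1.01), and the theta class pair from 27.6 to 48.4 TPM (0.81, 0.50 to 1.13). Of the other genes of the cluster *Gstm7* had 3 and 2 tags, and *Gstm3*, *Gstm4* and *Gstm6* had no unambiguous tag. 1 tag shared by *Gstm2* and *Gstm6* had 3 and 2 copies.

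*Gstp1*, a pi class enzyme, also binds the kinase JNK. Tags that belonged to it alone numbered 19 in GC-1spg against 16 in GC-2spd (ts), or 3.75 and 3.38 TPM, and it was not called (log2 ratio -0.15, -1.20 to 0.89, FDR 0.838, Audic-Claverie test). Most of its 3′ tags could not be given to 1 gene. A tag in the coding sequence of the last exon, exon 7, occurs without change in *Gstp1* (chr19:4035491-4035511, minus strand), in its neighbour *Gstp2* (chr19:4040369-4040389, minus strand) and in the processed pseudogene *Gstp-ps* (chr1:192073838-192073858, minus strand).
Gstp1, Gstp2 and Gstp-ps: CATGtgaaccgtcccatcaat

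This shared tag had 1300 copies in GC-1spg against 1976 in GC-2spd (ts). With its 1-mismatch forms, 13 tags in all, the set had 1309 and 1999 copies, or 258 and 423 TPM (log2 ratio 0.71, 0.61 to 0.81). The shared tags of the pi class thus stood at 258 TPM in GC-1spg, between *Gsto1* at 123 and *Mgst1* at 332, and at 423 TPM in GC-2spd (ts), above *Gsto1* at 396. *Gstp2* and *Gstp-ps* had no sense tag of their own in either library. Which of the 3 genes the shared tags came from cannot be told apart. Given to *Gstp1* whole, they would raise it to 1328 and 2015 tags with a log2 ratio of 0.70, under the fold threshold.

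**Figure D2:**
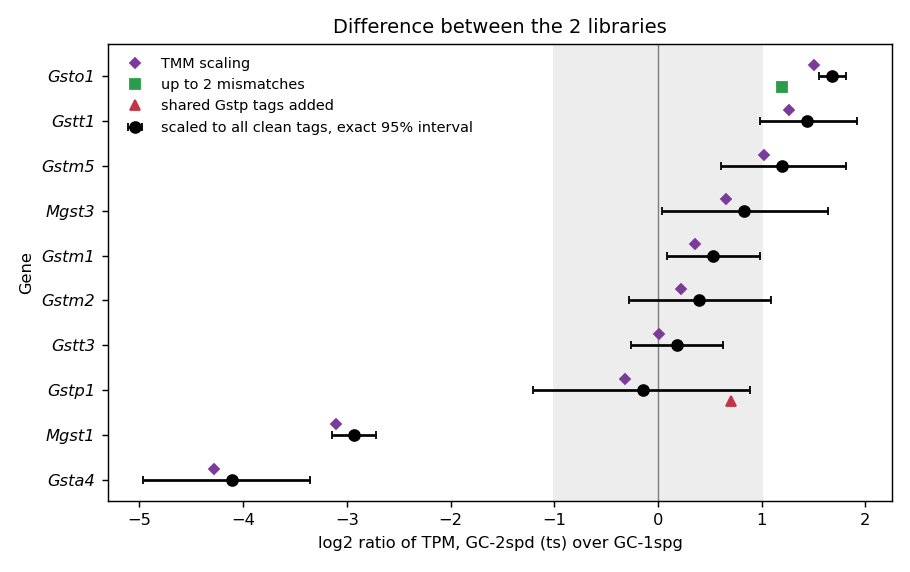
Log2 ratio of TPM, GC-2spd (ts) over GC-1spg, of each of the 10 genes (black circles, exact 95% interval), with the value under TMM scaling (diamonds), with up to 2 mismatches for *Gsto1* (square) and with the shared *Gstp* tags for *Gstp1* (triangle). Grey marks log2 ratios between -1 and 1. *Gsta4* at -4.11 and *Mgst1* at -2.93 lay to its left, and *Gsto1*, *Gstt1* and *Gstm5* to its right.

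The summed level of the 10 genes was close in the 2 libraries, 574 TPM in GC-1spg against 549 TPM in GC-2spd (ts) (log2 ratio -0.064, -0.14 to 0.012), while its make-up differed. *Mgst1* held 57.7% (55.9 to 59.5) of the summed tags in GC-1spg and 7.94% (6.92 to 9.04) in GC-2spd (ts). *Gsto1* held 21.5% (20.0 to 23.0) and 72.1% (70.3 to 73.8). *Gsta4* went from 9.51% to 0.578%, and *Gstt1* from 1.89% to 5.35%. Without *Mgst1* and *Gsto1* the other 8 genes summed to 119 and 110 TPM (log2 ratio -0.12, -0.29 to 0.052). This sum does not stand for its single genes. *Gsta4* held 277 of its 605 tags in GC-1spg and 15 of its 519 tags in GC-2spd (ts). Besides *Gsta4*, only *Gstp1* among the 8 genes had a negative log2 ratio (-0.15). The sign of the 10-gene sum turned when the shared *Gstp* tags were added (0.22), so the near-equal sums and the shares apply to tags of single genes. How near the sums were also depended on scaling and matching. Their log2 ratio was -0.24 with TMM, -0.23 with RLE and -0.15 scaled to unambiguous tags. It was -0.19 with exact matches and -0.18 with up to 2 mismatches, and all of these lay below the interval above. With the shared tags given to *Gstp1*, it held 31.4% and 43.8% of the sum, *Gsto1* 14.8% and 40.7%, and *Mgst1* 39.8% and 4.48%. With the 2-mismatch tag instead, *Gsto1* held 27.7% and 72.1%. The median log2 ratio of the 10 genes, with 0.5 tags added to both counts, was 0.46, and that of all genes tested was 0.13.

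**Figure D3:**
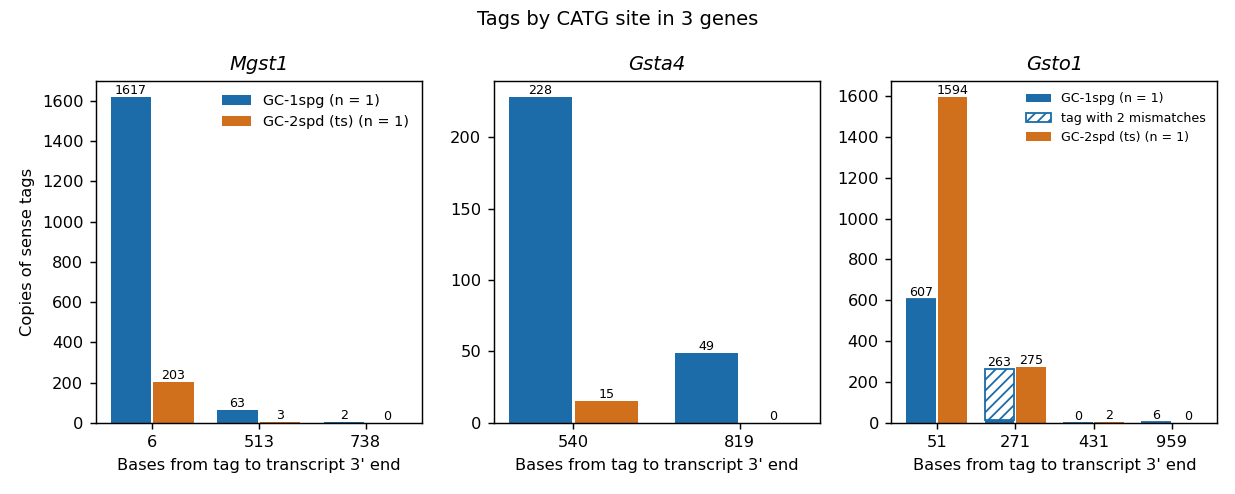
Copies of the sense tags of *Mgst1*, *Gsta4* and *Gsto1* at each CATG site, by distance from the 3′ end of the transcript in bases, in 1 library of each line, with the 2-mismatch tag of *Gsto1* hatched. *Mgst1* had 1617 and 203 copies at 6 bases, *Gsta4* 228 and 15 at 540 bases, and *Gsto1* 607 and 1594 at 51 bases but 263 and 275 at 271 bases.

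Antisense tags were listed for 9 of the 10 genes, *Mgst3* being the exception. Those that belonged to 1 gene alone were 20 tags with 250 copies in GC-1spg against 108 in GC-2spd (ts). They were not part of the levels above. These counts leave out antisense tags shared between genes, of which 2 tags of *Gstp1*, *Gstp2* and *Gstp-ps* had 90 and 97 copies (log2 ratio 0.21, -0.22 to 0.64). *Mgst1* had 105 and 10 antisense copies, 5.88% (4.83 to 7.07) and 4.63% (2.24 to 8.35) of its sense and antisense copies together. *Gsta4* had 76 and 2 (21.5%, 17.4 to 26.2, and 11.8%, 1.46 to 36.4), and *Gsto1* had 32 and 65 (4.86%, 3.35 to 6.80, and 3.36%, 2.60 to 4.26). For these 3 genes the intervals of the antisense share overlapped between the libraries, while those of *Gstt1* did not, with 8 and 2 antisense copies (12.7%, 5.65 to 23.5, and 1.42%, 0.172 to 5.03). The *Gstt1* copies in GC-1spg were tags of 3, 3 and 2 copies. Single copy tags had been removed before the counts were deposited, which the intervals do not take in, so no difference is drawn from this. Of the 20 antisense tags 12 began at the CATG of a listed sense tag, and these held 222 and 93 of the copies.

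The other glutathione transferase genes and their relatives formed a list of 21, of which 11 were listed in a library. By the same thresholds 0 were called higher and 4 were called lower in GC-2spd (ts). Of all genes tested 11.7% were called higher and 7.84% lower. The counts of this list and of the lists that follow were not tested against these shares. *Gsta3*, an alpha class gene, had 35 tags in GC-1spg against 0 in GC-2spd (ts), which is at least 6.88-fold lower. *Gstk1*, the mitochondrial and peroxisomal kappa class gene, had 46 and 3 tags (log2 ratio -3.84), and *Mgst2*, a further microsomal gene, had 65 and 10 (-2.60). *Gstz1*, the zeta class gene that also serves in tyrosine breakdown, had 72 and 31 (-1.11, FDR 0.000639, Audic-Claverie test). *Gstcd*, among the most abundant of the list, had 46 and 65 tags and was not called. The median log2 ratio of the list was -1.02, and its tags summed to 300 and 134.

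Glutathione itself is made by glutamate-cysteine ligase and glutathione synthetase. Of 15 genes for its synthesis and breakdown 13 were listed, 3 were called higher and 1 lower, with a median log2 ratio of 0.48. *Gclc*, the catalytic subunit of the ligase, had 22 tags in GC-1spg against 82 in GC-2spd (ts), or 4.34 and 17.3 TPM, and *Gclm*, its modifier subunit, had 406 and 604 (0.67, not called). *Ggt7* had 5 and 69 tags (3.89) and *Ggt5*, which cleaves glutathione conjugates outside the cell, had 0 and 17, at least 2.90-fold higher. *Chac1*, which breaks down glutathione inside the cell, had 63 and 12 (-2.29). *Slc3a2*, the heavy chain of the cystine transporter, had 101 and 136 tags, *Cndp2*, a dipeptidase gene, had 104 and 135, and neither was called.

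Glutathione peroxidases, glutaredoxins and glutathione reductase formed a list of 13 genes, with 9 listed, 3 higher, 2 lower and a median log2 ratio of 0.26. *Gpx8*, a peroxidase of the endoplasmic reticulum, had 382 and 812 tags (1.19), its relative *Gpx7* had 0 and 62, at least 14.02-fold higher, and *Glrx5*, a mitochondrial glutaredoxin, had 36 and 98 (1.55). *Gpx5* had 27 and 3 tags (-3.07) and *Glrx* 189 and 81 (-1.12). *Glrx3* (973 and 1089 tags) and *Gpx1* (464 and 615) were abundant and not called. *Gpx4*, the phospholipid hydroperoxide peroxidase, had no unambiguous tag. Its 16 tags shared with near copies had 1550 and 2119 copies (log2 ratio 0.55, 0.46 to 0.65).

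Conjugate exporters and glyoxalases formed a list of 9 genes, with 8 listed, 0 higher, 2 lower and a median log2 ratio of -0.60. *Glo1*, which uses glutathione to clear methylglyoxal, had 1902 and 595 tags (-1.57), and *Abcc3*, an exporter of conjugates, had 38 and 0, at least 7.46-fold lower. *Esd*, which hydrolyses S-formylglutathione, had 3385 and 2160 tags (-0.55) and was not called. *Abcc5*, another exporter, had 150 and 278 tags and was just under the fold threshold (0.99), and it was called higher in the longest transcript, with up to 2 mismatches and from the most 3′ CATG site alone.

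**Figure D4:**
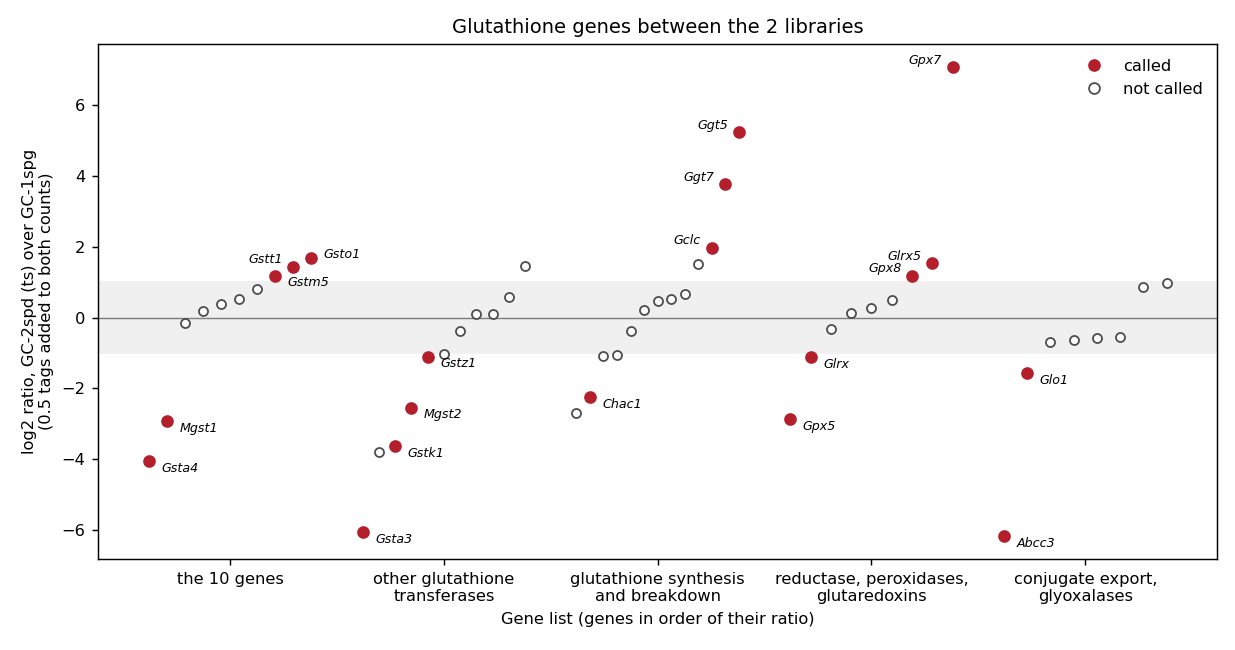
Log2 ratio of TPM with 0.5 tags added to both counts, GC-2spd (ts) over GC-1spg, of each listed gene of the 10 glutathione transferases and of 4 further lists, in order of the ratio within a list. Filled points were called and grey marks log2 ratios between -1 and 1. The called points of the other glutathione transferases and of the exporters and glyoxalases all lay below the grey range. Under some other matching settings *Abcc5* or *Gstm4* was called higher. Counts of called genes were not tested against the share of all genes (11.7% higher and 7.84% lower).

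The promoters were searched for the letters TGACNNNGC, the core of the antioxidant response element, on both strands. The windows were RefSeq promoters of GRCm38.p6 from 250 bases before to 50 after the start of transcription. 1 of 1 promoter of *Gstm5* and 1 of 2 promoters of *Mgst1* held them, the promoters of 7 further members did not, and *Gsta4* had no entry. Of all 32851 promoters 12.4% held these letters. *Gstm5* was called higher, a call that was lost with TMM, RLE and every assumed BCV, and *Mgst1* was called lower.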

How the data were processed

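GC-1spg and GC-2spd (ts) each gave 1 DGE tag library. The authors removed adaptor, low quality and single copy tags, and deposited for each distinct tag its raw count and its TPM (count over all clean tags, times 1000000). For the tag matching by the authors, no program name was found in the labels or methods. The deposited counts summed to 5072149 and 4726808, and 1 copy is 0.197 and 0.212 TPM.

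Tags were matched to all CATG+17 tags of GENCODE M21 transcripts (GRCm38), with at most 1 mismatch after CATG and exact matches first, and were kept when all best matches belonged to 1 gene. For each gene the sense counts were added and divided by the clean tags. Genes were compared by the two-sided Audic-Claverie test with Benjamini-Hochberg adjustment over 14450 genes (FDR at most 0.001, absolute log2 ratio at least 1, 0.01 TPM for a gene at 0). Ratio intervals are exact conditional binomial and share intervals Clopper-Pearson, at 95%. A fold against a gene at 0 is a bound from the one-sided 95% Poisson limit for 1 unlisted copy per tag of the other library. edgeR's quasi-likelihood test needs replicates and could not be fitted. The calling was also run on simulated counts that held counting error alone. That run cannot show how the calls behave when cultures of a line differ. The tools were edgeR 4.0.16 in R 4.3.3 and, in Python 3.11.15, scipy 1.17.1, numpy 2.4.6, matplotlib 3.10.9 and pandas 2.3.3.

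The 10 genes, the lists and the rule for naming genes were chosen with earlier results of these data known. The rule names the 10 genes, each called gene and the 3 most abundant of each list, and genes that share a tag with one of the 10. A gene that the rule names is not reported here. The cluster neighbours *Gstt2*, *Gstt4*, *Gstm3*, *Gstm4* and *Gstm7* were named for their position, and *Gpx4*, *Gss* and *Abcc5* after their values were seen. 16 alternatives were planned (matching, tag site, transcripts, strand, scaling, filter, test) and 3 were added after seeing the data.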

Additional observations from a re-analysis of the deposited data

Results flagged for a closer look

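The tags shared by *Gstp1*, *Gstp2* and *Gstp-ps* were outside the counts of single genes and had 1309 copies in GC-1spg against 1999 in GC-2spd (ts), against 19 and 16 for *Gstp1* alone.

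The antisense tags that belonged to 1 of the 10 genes alone were outside the sense counts. They had 250 copies in GC-1spg against 108 in GC-2spd (ts). Antisense tags shared by *Gstp1*, *Gstp2* and *Gstp-ps* had 90 and 97 copies.

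The *Gsto1* tag with both G13A and T21A was outside the matching with 1 mismatch and had 250 copies in GC-1spg against 0 in GC-2spd (ts). There were no control samples, and the origin of these tags was not tested.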

How the results depend on the processing

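No paired analysis was possible because each cell line had 1 library, which also left no replicate to leave out. Of 19 alternatives, *Mgst1* and *Gsta4* kept their call in all but edgeR's exact test with an assumed biological coefficient of variation (BCV) of 0.4, where the FDRs were 0.0285 and 0.00218. With a BCV of 0.2 the members called higher were 0 (*Gsto1* FDR 0.00113, *Gstt1* 0.02) and all genes called were 1000. With 0.4 both member counts were 0 and all genes called were 244. The call of *Gstm5* was lost with TMM, RLE and every BCV (FDR 0.00486 at 0.1). *Gstt1* had no matched tag in the longest transcript. TMM gave 1292 genes higher and 1443 lower (47.2% higher, against 59.8% as reported), and RLE 1314 and 1425 (48.0%). These scalings moved the median log2 ratio of genes found in both libraries from 0.16 to about 0 (-0.010 with TMM). The log2 ratio of the summed 10 genes was -0.19 with exact matches, -0.24 with TMM, -0.23 with RLE, -0.15 scaled to unambiguous tags, -0.18 with up to 2 mismatches, and turned to 0.22 with the tags shared with *Gst* pseudogenes, which turned *Gstp1* to 0.70. With the site nearest the 3′ end *Gstp1* was at 0.014 and *Mgst3* at -5.30 (2 and 0 tags), and in the longest transcript *Gstt3* was at -6.30 (4 and 0 tags). These 3 were not called, and fewer tags entered by construction. Of the other lists, *Gstz1* lost its call at every BCV and in the longest transcript, *Gsta3* with the site nearest the 3′ end and in the longest transcript, *Glrx5* with the site nearest the 3′ end, *Glrx* in the longest transcript, *Ggt5* in the longest transcript and with poly(A), and *Gpx5* in both of these and with exact matches. At a BCV of 0.2 *Glo1*, *Gpx8*, *Glrx*, *Glrx5*, *Gpx5*, *Gclc*, *Ggt5* and *Chac1* were also lost, and at 0.4 *Gpx7* alone of these lists kept its call. *Gss* (53 and 23 tags) was called lower with TMM and RLE, *Abcc5* higher in 3 alternatives, and *Gstm4* (0 and 13 tags) higher with transcripts extended by poly(A). Low counts limit *Gstp1*, *Mgst3* and *Gstm2*, with under 50 tags in each library, and *Gsta4*, with 15 tags in GC-2spd (ts).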
